A study of Homo sapiens with 4 samples.

Results

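The mRNAs of 10 RNA-binding proteins of stress granules and mRNA stability were examined in A549 cells after knockdown of the long noncoding RNA USP2-AS1. The genes were G3BP1, G3BP2, CAPRIN1, TIA1, TIAL1, ELAVL1, DDX6, IGF2BP1, IGF2BP2 and IGF2BP3, chosen by name because G3BP1 is the protein partner of USP2-AS1 in the study. Of these 10 genes, 7 are among the 6828 genes of the deposited table. G3BP2, TIA1 and TIAL1 are not among them, and no value is given for them here. A549 is a human lung adenocarcinoma cell line. Both groups were infected with lentivirus for 72 h, the control group (shctrl) with a control shRNA and the other (shUSP2-AS1) with a USP2-AS1 shRNA, and each group had 2 libraries that the study describes as biological replicates. Which of the USP2-AS1 hairpins was used for these libraries is not given in the sources used here.

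The table lists only genes that had passed the adjusted p threshold of the authors, so each listed gene had already been selected on this comparison. It holds read counts divided by a size factor of each library, called normalized read counts here. Recovered reads on the listed genes numbered between 10772788 and 14120472 per library, and the spread between replicates exceeded counting noise, with chi-square values of 3.73 and 3.83 per degree of freedom. USP2-AS1 itself had 24 and 22 reads in shctrl and 2 and 7 in shUSP2-AS1, lower in both knockdown libraries. Of 6 epithelial markers, 4 keratin genes (KRT7, KRT8, KRT18 and KRT19) were listed, all with normalized read counts of at least 3254 in every library, and of 3 lung epithelial markers 0 were listed. The keratin genes moved too, with log2 fold changes of -1.05 for KRT18, -0.77 for KRT8, -0.49 for KRT7 and 0.75 for KRT19. Of 3 markers of other cell types only COL1A1 was listed, at 261 and 293 in shctrl and 530 and 618 in shUSP2-AS1, and the part of these markers in the results below was not tested.

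When translation initiation is blocked by stress, mRNAs released from ribosomes gather with RNA-binding proteins in cytoplasmic stress granules. G3BP1 and its paralog G3BP2 are the scaffold on which these granules condense, CAPRIN1 binds G3BP1 and favors condensation, and TIA1 and TIAL1 are prion-like proteins of the same granules. Outside granules the fate of an mRNA depends on which proteins hold its untranslated regions. ELAVL1 (HuR) binds AU-rich elements and protects mRNAs from decay, DDX6 is the helicase that couples translational repression to decapping in processing bodies, and the IGF2BP proteins bind and stabilize mRNAs, many of them marked by m6A.

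The knockdown and the G3BP1 binding assays of the study used designed sequences in the last exon of USP2-AS1, which are shown because they place the hairpin targets relative to the exon 4 fragments tested with G3BP1. In GRCh38, exon 4 of the GENCODE release 44 transcript spans chr11:119498550-119500626, is 2077 bases long and is noncoding. The target of shUSP2-AS1#1 lies on its plus strand at chr11:119498750-119498770, and the target of shUSP2-AS1#2 at chr11:119499384-119499404. The oligonucleotide used to pull down USP2-AS1 with its proteins is complementary to chr11:119498597-119498617. The tested fragment exon 4-F1 spans chr11:119498550-119499549 and holds both hairpin targets. The fragment called exon 4-F2 runs from its forward primer at chr11:119499550-119499574 to its reverse primer at chr11:119500573-119500595, directly downstream of F1. In the in vitro binding assay of the study, F2 bound G3BP1 and F1 did not. In the hairpin targets below, capitals mark the 7 bases that pair with positions 2 to 8 of the guide strand.
shUSP2-AS1#1: taatctcagcgagATGAAGAg
shUSP2-AS1#2: gcactcagttgtaCTTCTTTa
antisense pull-down oligonucleotide: caattcttcctggattccagc
exon 4-F2 forward primer: aaaaatacattcttacacctttaat
exon 4-F2 reverse primer: tacagttgcacgtggctagggaa

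The 7 listed genes split by family after USP2-AS1 knockdown. G3BP1, CAPRIN1, ELAVL1 and DDX6 fell, and the 3 IGF2BP genes rose. The mean of G3BP1 fell by 21.8% and that of DDX6 fell by 59.1%, the ends of the range of decreases, and the increases ranged from 23.8% for IGF2BP1 to 100.3% for IGF2BP3. All 7 had an adjusted p below 0.05 (limma on log2(normalized read count + 1), Benjamini-Hochberg adjustment over 6812 genes tested), as did 6811 of the 6812 (100% when rounded, 49.4% lower and 50.6% higher), in a table selected for this. When the estimate also had to reach 1 on the log2 scale in either direction, only DDX6 and IGF2BP3 were called, 2 of 7, beside 29.7% of all genes tested (13.5% lower and 16.1% higher). The libraries of both groups did not overlap for any of the 7 genes, which was also so for 100% of the genes tested. The same count falls if cells hold less of an mRNA or if fewer cells hold it, and bulk libraries cannot tell these apart.

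**Figure D1:**
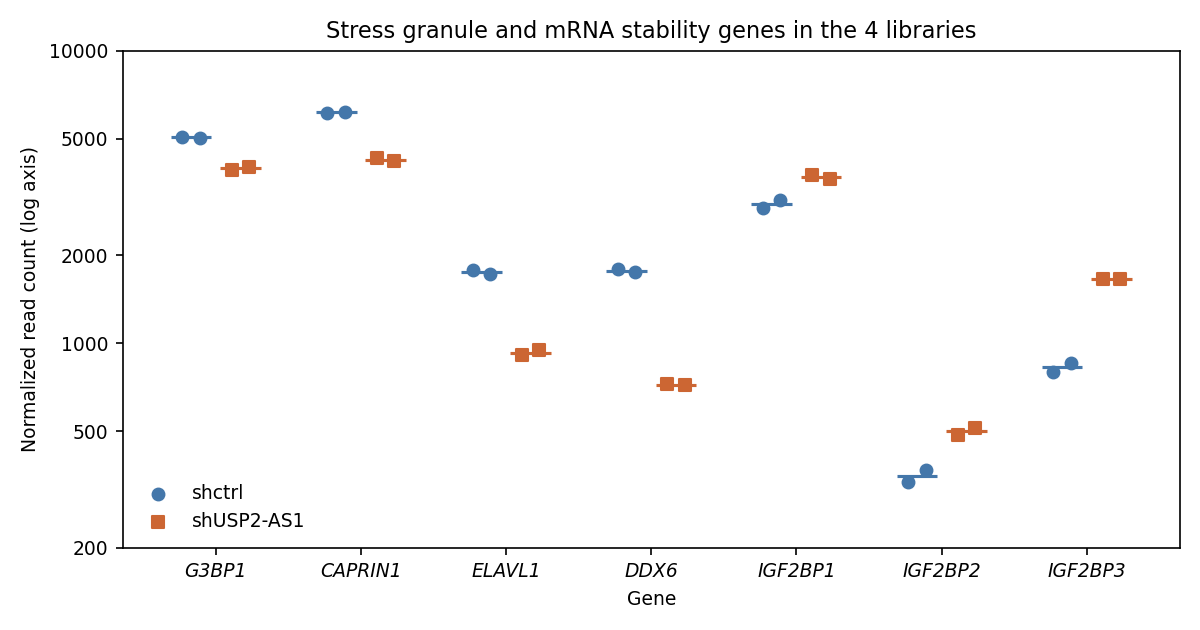
Normalized read count (log axis) of each listed gene in the 2 shctrl libraries (circles) and the 2 shUSP2-AS1 libraries (squares), with short lines at the group means. G3BP1, CAPRIN1, ELAVL1 and DDX6 are lower and the 3 IGF2BP genes higher in both shUSP2-AS1 libraries, and replicates lie close to each other.

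G3BP1 (ENSG00000145907), the granule scaffold, lies on the plus strand at chr5:151771045-151812785 of GRCh38. Its normalized read count was 5069 and 5050 in shctrl, against 3926 and 3992 in shUSP2-AS1. Both knockdown libraries were lower, and the gap between groups was far wider than that between replicates, which differed by 0.382% in shctrl and 1.69% in shUSP2-AS1. Means were 5059 ± 13.6 and 3959 ± 46.9 (SD, n = 2 libraries per group). On the log2 scale this was a change of -0.35 (SE 0.05, limma adjusted p = 2.64e-06), with a 95% interval from -0.46 to -0.25 that stays short of a change of 1. G3BP1 was among the more abundant genes of the table, with between 3733 and 5246 reads per library, and counting error alone was at most 1.64%.

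CAPRIN1 (ENSG00000135387), the G3BP1-binding protein of the granule core, lies at chr11:34051731-34102610. It had a normalized read count of 6137 and 6166 in shctrl and 4293 and 4184 in shUSP2-AS1. Again both knockdown libraries were lower. Its log2 fold change of -0.54 (SE 0.05, limma adjusted p = 1.32e-08) was larger in size than the -0.35 of G3BP1. Per kb of gene length, the ratio of CAPRIN1 to G3BP1 was 1.65 and 1.67 in shctrl and 1.49 and 1.43 in shUSP2-AS1. The ratio was lower in both knockdown libraries, with p = 0.333 in a two-sided exact permutation test, which is the smallest p that 2 against 2 libraries allow. Over the 12 ratios, shares and sums computed in this way the smallest adjusted p was 0.364 (exact permutation test), so none of them could pass 0.05.

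ELAVL1 (ENSG00000066044), at chr19:7958573-8005659 on the minus strand, encodes HuR, which shields mRNAs with AU-rich elements. Its normalized read count was 1785 and 1725 in shctrl and 910 and 946 in shUSP2-AS1. Both knockdown libraries were lower, and replicates differed by at most 3.95%. The estimated log2 change was -0.92 (SE 0.06, limma adjusted p = 3.41e-10), and its 95% interval, from -1.05 to -0.79, includes the threshold of -1. ELAVL1 was not called at the deposited scaling, but it was with RLE scaling and with DESeq2, at -1.04 in both. Their size factors were computed from the listed genes. TMM scaling (-0.93), upper quartile scaling (-0.86) and edgeR (-0.93) also used the listed genes and did not call ELAVL1.

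DDX6 (ENSG00000110367), the decapping-associated helicase, lies at chr11:118747763-118791164 on the minus strand. Its normalized read count was 1789 and 1746 in shctrl and 725 and 720 in shUSP2-AS1. DDX6 therefore showed the lowest ratio of knockdown to control among the 7 genes, 0.409. In log2 units it fell by 1.29 (SE 0.06, limma adjusted p = 5.0e-12), and its absolute size was at the percentile 80.2 of all genes tested. DDX6 is on the chromosome of USP2-AS1, with 573195 bases between the listed intervals. Of 14 listed genes within 1 Mb of USP2-AS1, 2 were called lower, DDX6 and H2AX, and 3 higher, THY1, TRIM29 and PDZD3, an overview made after the values were seen. Over all genes tested the shares were 13.5% and 16.1%, so 2 and 3 of 14 were near the background.

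The 3 IGF2BP genes encode a family of RNA-binding proteins. Of them IGF2BP1 and IGF2BP3 are oncofetal, active in embryos, mostly silent in adult tissue and regained in many tumors. IGF2BP1 (ENSG00000159217, chr17:48997385-49056145) had a normalized read count of 2904 and 3079 in shctrl and 3749 and 3656 in shUSP2-AS1. Both knockdown libraries were higher, and limma estimated a log2 change of 0.31 (SE 0.05, adjusted p = 2.99e-05). IGF2BP2 (ENSG00000073792, chr3:185643130-185825042) had the fewest reads, between 336 and 585 per library, with a counting error of up to 5.46%. Its normalized read count was 335 and 369 in shctrl and 486 and 515 in shUSP2-AS1. It was higher in both knockdown libraries, by 0.51 in log2 units (SE 0.10, limma adjusted p = 7.99e-05).

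IGF2BP3 (ENSG00000136231, chr7:23310209-23470491) changed most of the family. Its normalized read count was 799 and 857 in shctrl and 1664 and 1654 in shUSP2-AS1. Both knockdown libraries were higher, and they differed from each other by 0.561%. The estimated log2 change was 1.00 (SE 0.07, limma adjusted p = 1.85e-10), with a 95% interval from 0.86 to 1.14. The estimate sits on the threshold of 1, so the call of IGF2BP3 turned on small changes of the scaling. It was 0.99 with TMM scaling, 0.88 with RLE scaling and 1.06 with upper quartile scaling. Without replicate 1 of shctrl it was 0.95, and without replicate 1 of shUSP2-AS1 it was 0.998, and neither fit called it.

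**Figure D2:**
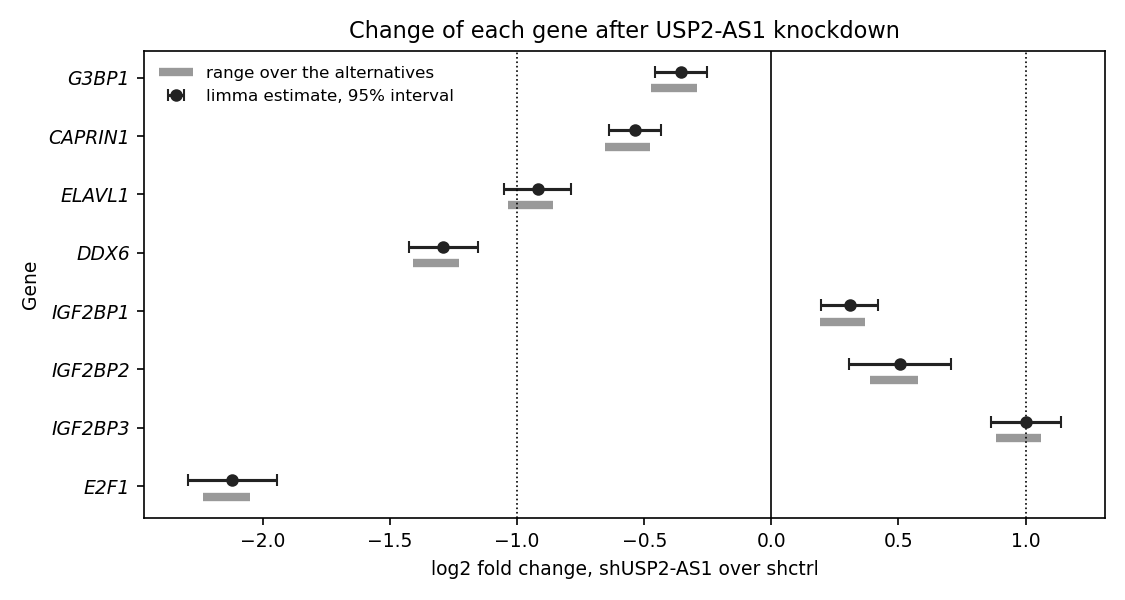
Log2 fold change of shUSP2-AS1 over shctrl for the 7 listed genes and E2F1, with points and bars for the limma estimate and its 95% interval, and grey bars for the range over the alternative scalings, filters, tests and left-out libraries. The directions stayed the same throughout, and the dotted threshold lines at -1 and 1 cross the intervals of ELAVL1 and IGF2BP3.

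The makeup of the IGF2BP family shifted with these unequal increases. Summed per kb, the family stood at 458 and 489 in shctrl and at 675 and 670 in shUSP2-AS1. IGF2BP1, the main member, supplied 65.8% and 65.3% of this sum in shctrl and 57.6% and 56.7% in shUSP2-AS1. The share of IGF2BP3 was 20.4% and 20.5% in shctrl and 28.9% and 28.9% in shUSP2-AS1. The IGF2BP3 share was thus higher and the IGF2BP1 share lower in both knockdown libraries, while the share of IGF2BP2 overlapped between groups, with 13.7% and 14.2% against 13.5% and 14.4%. The ratio of IGF2BP1 to IGF2BP3 per kb went from 3.20 ± 0.0259 in shctrl to 1.98 ± 0.0271 in shUSP2-AS1 (SD, n = 2 libraries per group). The sizes of these shares and of this ratio depend on the gene lengths used, 9631 bases for IGF2BP1 and 8535 for IGF2BP3. The canonical transcripts have 8796 and 4274 bases, so with these the share of IGF2BP3 would be larger and the ratio smaller in both groups.

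Divided by gene length, the levels of the 7 genes had a different order in each group. In shctrl the order was CAPRIN1 with a normalized read count of 676 per kb, G3BP1 with 408, IGF2BP1 with 311, ELAVL1 with 252, DDX6 with 154, IGF2BP3 with 97.0 and IGF2BP2 with 66.1. In shUSP2-AS1 it was CAPRIN1 with 466 per kb, IGF2BP1 with 384, G3BP1 with 319, IGF2BP3 with 194, ELAVL1 with 133, IGF2BP2 with 93.9 and DDX6 with 63.0. In both groups the replicate ranges of neighbors in the order did not overlap. IGF2BP1 passed G3BP1, IGF2BP3 passed both ELAVL1 and DDX6, and DDX6 came last. The gene lengths are those of the deposited table and can exceed the length of the main transcript, as for G3BP1 with 12406 against 10227 bases, so the order depends on them.

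**Figure D3:**
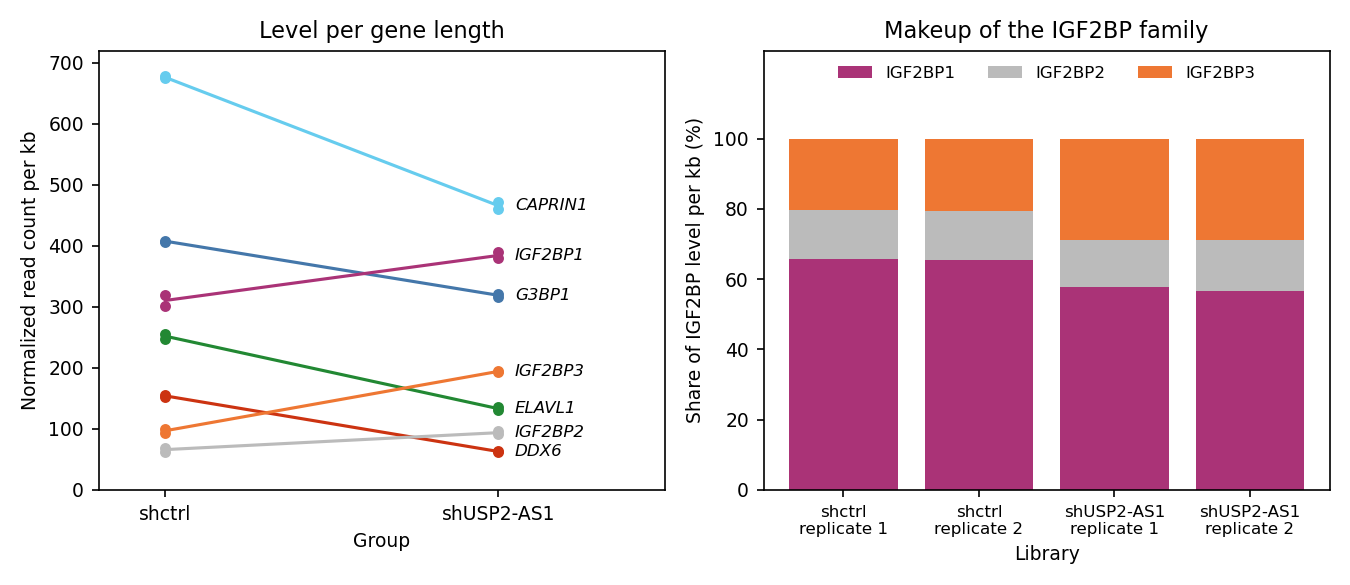
Left, normalized read count per kb of gene length, with points for libraries and lines joining group means. Right, share of each IGF2BP gene in the summed level of the family per kb in each of the 4 libraries, where the IGF2BP3 share is 20.4% to 20.5% in shctrl and 28.9% in both shUSP2-AS1 libraries.

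E2F1, the mRNA that the study places downstream of G3BP1, moved further than any of these genes. With the gene lengths used, its level per kb was 476 and 461 in shctrl, above that of G3BP1. In shUSP2-AS1 it was 102 and 113, below that of ELAVL1. The place of E2F1 above G3BP1 depends on these lengths and does not hold with those of the canonical transcripts. E2F1 has 2690 bases in both, while G3BP1 has 12406 against 10227. E2F1 had a log2 fold change of -2.12 (SE 0.08, limma adjusted p = 2.36e-13), beside -0.35 for G3BP1. These libraries measure mRNA, so neither the amount of G3BP1 protein nor its binding to RNA was measured in them. The genes whose profile over the 4 libraries was closest to that of G3BP1 were PSME3IP1, ZC3H7B and SRP9, with Euclidean distances of 0.0049, 0.0125 and 0.0129 between centered log2 values. Such profiles were common, as 370 of the 6091 genes compared lay within 0.1 of G3BP1.

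The control sequences of these genes were then read for features that the choice of genes had not used. The microRNA let-7, a known repressor of the IGF2BP genes, pairs through its seed with the 7 bases CTACCTC. The mature let-7a sequence from RefSeq (GRCh38.p14) is shown with its seed in capitals, followed by 1 site from the 3′-UTR of each IGF2BP gene with the match in capitals, from the canonical GENCODE transcripts.
hsa-let-7a-5p: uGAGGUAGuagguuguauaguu
IGF2BP1: ggattaaCTACCTCaatcctt
IGF2BP2: gaagaagCTACCTCaggtgtt
IGF2BP3: tactcaaCTACCTCaggtatt

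IGF2BP1 held 4 such matches, and IGF2BP2 and IGF2BP3 held 1 each. A match was present in 11.2% of 6343 tested genes with a 3′-UTR, and in 20.9% of the 2407 of them with a 3′-UTR of at least 2000 bases, while 3 or more matches occurred in 10 genes. Among the genes that fell, G3BP1 and ELAVL1 held 1 each and CAPRIN1 and DDX6 held 0. The level of let-7 itself was not measured here. The 7-base match to the guide of shUSP2-AS1#1 occurred 2 times in the 3′-UTR of G3BP1 and 1 time each in those of DDX6 and IGF2BP1. The match of shUSP2-AS1#2 occurred 2 times in G3BP1 and 1 time each in CAPRIN1, ELAVL1, IGF2BP1 and IGF2BP2. The match of the control hairpin, CGCCCTC, occurred 1 time in IGF2BP1 and in none of the other listed genes. Among tested genes with a 3′-UTR of at least 2000 bases, as all 7 genes have, 36.1% held a match to the first hairpin, 46.6% to the second and 7.69% to the control hairpin. Genes that rose and genes that fell both held matches, and an effect of the hairpins on them was not tested.

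The RefSeq promoter windows, 250 bases before to 50 bases after a start site, covered 8 of the 10 genes, without ELAVL1 and IGF2BP1. The E2F motifs TTTCCCGC, TTTGGCGC, TTTCGCGC and TTTGCCGC were searched on both strands. They occurred in 0 of the 16 windows of these 8 genes, against 3.31% of all 35116 windows. So few windows cannot set these genes apart from that share. The E-box CACGTG, which reads the same on both strands and is the core of c-Myc binding sites, occurred in 7.26% of all windows. It occurred in 1 of 5 windows of G3BP2, and, among the listed genes with a window, in that of IGF2BP3 alone, with 2 copies at positions -174 and -146 from the start site. They lie on the minus strand of chromosome 7 in GRCh38.p14, at chr7:23470647-23470676 and chr7:23470619-23470648, and are shown with the motif in capitals.
IGF2BP3, first copy: ctgggattcctCACGTGagacgttgatttg
IGF2BP3, second copy: tgtagtttgaaCACGTGgctcattcaaaaa

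The wider machinery of mRNA storage and decay was followed with 10 lists of 192 genes, of which 126 were tested. Of these, 102 were lower and 24 higher in shUSP2-AS1, all with an adjusted p below 0.05 from limma. Over all genes tested, 49.4% were lower and 50.6% higher at this level. Called were 17 lower and 5 higher, beside 13.5% and 16.1% of all genes tested. The median log2 fold change of the 126 genes was -0.53, against 0.19 for all genes tested. The median of all genes tested depended on the filter, and with at least 10 reads in every library it was -0.16 over 6583 genes, beside -0.54 for the genes of the lists. Genes that did not pass the authors' adjusted p threshold are not listed, whether or not they changed, so these counts do not describe whole pathways.

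Of 31 partners of G3BP1 in stress granules, 25 were tested and all 25 were lower, with a median log2 fold change of -0.40. Over all genes tested 49.4% were lower and 13.5% were called lower, and of these 25 genes 1 was called. This was PABPC4, a cytoplasmic poly(A)-binding protein, with a normalized read count of 2956 and 2898 in shctrl and 821 and 838 in shUSP2-AS1 and a log2 fold change of -1.82. ATXN2L, an ataxin-2 paralog, had a log2 fold change of -0.86. The direct G3BP partners had log2 fold changes of -0.58 for UBAP2L, which promotes granule assembly, -0.35 for its paralog UBAP2 and -0.29 for USP10, the deubiquitinase that competes with CAPRIN1 for G3BP1.

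Among the enzymes that remove mRNAs, most listed genes were lower as well. Beside the counts below, 49.4% of all genes tested were lower, 13.5% were called lower and 16.1% called higher. In the RNA exosome and Ski list, 12 of 14 tested genes were lower and 5 of them were called, namely EXOSC8 with a log2 fold change of -1.40, the helicase MTREX with -1.34, EXOSC2 with -1.29, EXOSC5 with -1.23 and EXOSC9 with -1.09. In deadenylation, 9 of 13 were lower. The CCR4-NOT subunits CNOT11 (-1.88) and CNOT7 (-1.13) and the poly(A) ribonuclease PARN (-1.06) were called lower, while BTG2, an antiproliferative gene that recruits CCR4-NOT, was called higher with 1.64. PARN was uneven between replicates, with a normalized read count of 191 and 329 in shctrl and 89.4 and 161 in shUSP2-AS1, and its call was lost without replicate 2 of shctrl (-0.67) or replicate 1 of shUSP2-AS1 (-0.64). In decapping, 7 of 8 were lower, with LSM3 (-1.58) and LSM5 (-1.01), subunits of the LSM ring, called. LSM5 was no longer called without replicate 1 of shctrl (-0.998) or of shUSP2-AS1 (-0.98). DCP1B, a decapping cofactor, was called higher with a log2 fold change of 2.28, on 13 and 7 reads in shctrl and 58 and 50 in shUSP2-AS1. In nonsense-mediated decay all 10 tested genes were lower, and the exon junction paralogs MAGOHB (-1.41) and MAGOH (-1.09) were called, with EIF4A3 of the same complex at -0.89. MAGOH lost its call without replicate 1 of shctrl (-0.91) or of shUSP2-AS1 (-0.96), and EIF4A3 was called with RLE scaling and with DESeq2, at -1.01 in both.

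The lists of regulators were mixed. Their counts stand beside the same shares of all genes tested, 49.4% lower, 13.5% called lower and 16.1% called higher. Of 16 tested genes that bind AU-rich or other 3′-UTR elements, 10 were lower and 6 higher, with a median of -0.26. PUM2, a repressor that binds Pumilio elements, was called lower with a log2 fold change of -1.83, and CPEB2, which binds cytoplasmic polyadenylation elements, was called higher with 1.06, but not with RLE scaling (0.94) or DESeq2 (0.95). ZFP36 (tristetraprolin), which binds AU-rich elements as ELAVL1 does but promotes decay, had a normalized read count of 1276 and 1281 in shctrl and 2424 and 2371 in shUSP2-AS1. Its log2 fold change of 0.91 was close in size and opposite in sign to that of ELAVL1. In the microRNA list, AGO2, the slicing Argonaute, was called lower with -1.09 (-0.96 and not called without replicate 2 of shctrl), and AGO4 (1.32) and the scaffold TNRC6A (1.38) were called higher, out of 8 tested.

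For m6A, whose marks IGF2BP proteins read, 12 of 14 tested genes were lower, and RBM15 (-1.05) and METTL16 (-1.03), both of the writer side, were called, with the reader HNRNPA2B1 at -0.93. Neither call held without replicate 2 of shctrl, where RBM15 was at -0.95 and METTL16 at -0.97, and RBM15 (-0.98) also lost its call without replicate 2 of shUSP2-AS1. With upper quartile scaling 0 genes of this list were called lower, and with RLE scaling 4 were. At the deposited scaling 49.4% of all genes tested were lower and 13.5% were called lower. None of 10 tested genes of eIF2 phosphorylation, the switch that starts granule formation, was called, beside 29.7% of all genes tested. EIF2S2, the eIF2 beta subunit, had a log2 fold change of -0.79, PPP1R15A, which recruits the eIF2 phosphatase, 0.71 and the kinase gene EIF2AK3 0.65. None of 8 tested partners and client mRNAs of the IGF2BP proteins was called at the deposited scaling either, while HNRNPU was called with RLE scaling and with DESeq2, at -1.01 in both. Of these 8 genes 5 were lower and 3 higher. The partners HNRNPU (-0.90) and DHX9 (-0.79) were lower. Among the clients CD44 was higher, with a log2 fold change of 0.64, while MYC was lower, with -0.46.

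**Figure D4:**
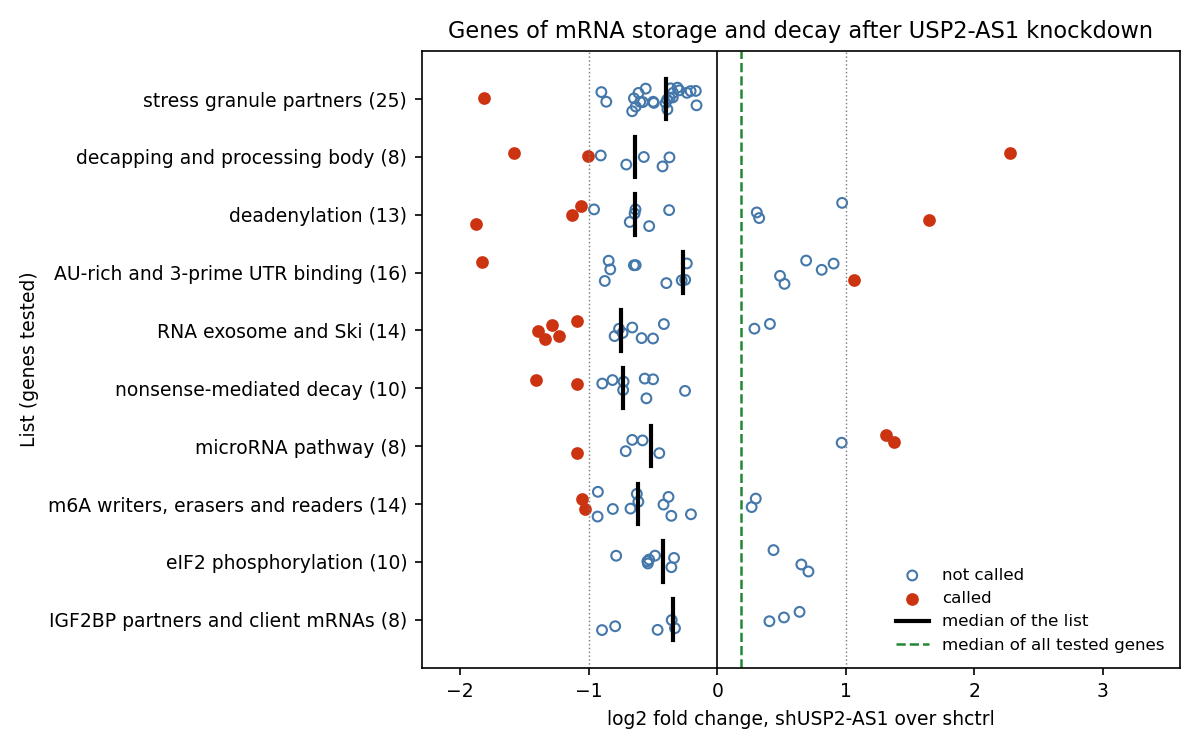
Log2 fold change of shUSP2-AS1 over shctrl for each tested gene of the 10 lists, with filled points for called genes, black ticks for list medians and a dashed line for the median of all tested genes. All 10 list medians lie below 0, between -0.75 and -0.26, and the median of all tested genes is 0.19, or -0.16 when every library must hold at least 10 reads.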

How the data were processed

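RNA-seq of 4 A549 libraries (2 shctrl, 2 shUSP2-AS1) was reanalysed from 1 deposited table. Per the labels and methods, the authors had reads processed with HISAT2 (version 2.0.5), featureCounts (version 1.5.0-p3) and DESeq2 (version 1.20.0) on hg38. The deposited values are a normalized signal, the count of each gene scaled by the size factor of its library. The authors also deposited group means, log2 fold changes and p-values, of which only the adjusted p-values were read, to check that all 6828 were below 0.05. Columns of libraries were matched to sample titles by hairpin and replicate number. All values (100% in each library, within 0.01 reads for low counts) gave whole reads.

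After removal of genes averaging under 10, limma (version 3.58.1, R version 4.3.3) with a variance trend was run on log2(value + 1) of the remaining 6812. A call required an adjusted p (Benjamini-Hochberg) below 0.05 and a log2 fold change of 1 or more in size. Since the authors kept only genes that had passed this comparison, the adjusted p-values are smaller than over all genes. The edgeR (version 4.0.16) and DESeq2 (version 1.42.0) tests on recovered reads, other scalings, filters and pseudocounts, a replicate block and left-out libraries were alternatives, and edgeR called 940 genes lower and 1085 higher. The methods were tested on simulated data. The limma p-values set the difference between groups against a spread between libraries that is estimated partly from other genes, with 2 libraries per group.

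The 10 genes, the gene lists, the neighbors and the sequence motifs were chosen with earlier results of these data known. Named were the 10 genes, USP2-AS1, E2F1, the 3 genes with the largest change and all called genes of each list, the partners USP10, UBAP2 and UBAP2L, the chromosome 11 neighbors, and the 3 profiles nearest to G3BP1 among genes with a mean of at least 100. A gene that this rule names is not reported here. Hairpins and primers came from the study's primer list, transcripts from GENCODE release 44 and promoters from RefSeq.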

Additional observations from a re-analysis of the deposited data

How the results depend on the processing

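All 7 listed genes kept their direction in all 13 alternatives computed for each, with 4 lower and 3 higher. Their adjusted p stayed below 0.05 in the 9 alternatives that kept all 4 libraries. The genes had been selected on adjusted p in this comparison, and 6811 of the 6812 genes tested passed at the deposited scaling. Refits of the same libraries are therefore no separate support for these 7 genes. The log2 fold change of G3BP1 ranged from -0.47 to -0.29 and that of DDX6 from -1.41 to -1.23. RLE scaling, computed from the listed genes alone, shifted the median of all genes tested by -0.12, and G3BP1 moved with it to -0.47. The count of genes called among the 7, 1 lower and 1 higher, depended on the threshold. The higher call, IGF2BP3, became 0 with TMM scaling, RLE scaling, edgeR, DESeq2 and the test against a fold change of 2. The lower count became 2 with RLE scaling and with DESeq2, by the addition of ELAVL1. With each library left out the counts were 1 lower in every case and between 0 and 1 higher. The test against a 2-fold change called 9 pathway genes lower and 3 higher, and 523 and 541 of all genes, in place of 922 and 1098. RLE scaling gave 1143 and 934. A replicate block left 922 genes called lower and 1098 higher, with G3BP1 at -0.35. In this balanced layout a block cannot change a log2 fold change, so it is no check on these sizes. Deviations of same-numbered libraries were unrelated (correlation over genes of -0.04). Whether same-numbered libraries were prepared together is not given in the sources used here, and this correlation cannot decide it. With a filter of 10 reads in every library USP2-AS1 gave no value and the median of all genes moved to -0.16. With 2 libraries per group and a table of selected genes, a change in G3BP2, TIA1 or TIAL1 could not be examined.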
